A study of Mus musculus with 12 samples.

Results

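The genes described here are 10 members of the NF-κB system: the subunit genes Rela, Relb, Nfkb1 and Nfkb2, the inhibitor genes Nfkbia and Nfkbie, the genes Nfkbiz and Bcl3 for nuclear proteins of the inhibitor family, and the feedback genes Tnfaip3 and Birc3. They were chosen by their symbols in the scanner files, where they make up 10 of 27962 gene names and 15 of 41174 distinct probes. All 15 probes lay well above background on each of the 12 arrays, none of their spots was marked as saturated, and all 15 were among the 22751 probes tested. C57MG, a mouse mammary epithelial cell line, was treated for 24 h with recombinant human Rspo2 at 100 ng/ml, recombinant mouse Wnt3a at 100 ng/ml, both proteins at these doses, or BSA, the carrier protein, as the control. Each of the 4 groups had 3 biological replicates, and the RNA of each was hybridized in a single color to its own array. Values are log2 signals from which the 75th percentile of the same array was subtracted, so a difference of -1 is a signal lower by a factor of 2. A gene with several probes is given by the brightest, and a level is compared between groups of the same probe only.

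NF-κB dimers are held in the cytoplasm by IκB proteins until kinases downstream of cytokine and pattern-recognition receptors mark the IκB for destruction, after which the dimers enter the nucleus. The genes they switch on include those of their own inhibitors, of several of their own subunits, and of enzymes that shut off the upstream signal, so the mRNAs of these genes are widely read as feedback outputs of the pathway. Rspo2 is a secreted protein that strengthens responses to Wnt ligands, and Wnt3a is a ligand of the β-catenin branch of Wnt signaling.

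The mRNA signals of most of these genes were lower after 24 h with either protein, while Rela and Nfkb2 passed the test in no comparison. With both proteins, 8 of the 10 genes fell, against 17.3% of all tested probes, and none rose, against 21.9% of all tested probes. The genes were chosen with earlier results of these data known, so such counts beside such shares are descriptions and not tests. The largest change was that of Nfkbiz, which fell to 32.3% of its control signal, and Nfkbia fell to 51.7%. Those 2 were also lower with both proteins than with either one alone, but the difference from Wnt3a alone did not pass for either gene once slide was a term in the fit (adjusted p 0.0535 for Nfkbiz and 0.17 for Nfkbia), and of the falls against BSA only that of Nfkbiz with both proteins passed in that fit. Nfkbie and Bcl3 fell with each protein alone, and their signals with both proteins overlapped those with each alone. A gene is said to have risen or fallen where its p in limma, adjusted by the Benjamini-Hochberg method over all tested probes, was under 0.05. In these bulk samples fewer cells of a type and less RNA per cell cannot be told apart.

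The arrays lay on 3 slides. Slide 1 carried all BSA arrays with Rspo2 replicate 1. Slide 2 carried the other Rspo2 arrays (replicates 2 and 3) together with Wnt3a replicates 1 and 2, and slide 3 carried Wnt3a replicate 3 together with the arrays of both proteins. BSA shared no slide with Wnt3a or with both proteins, so these comparisons are also comparisons between slides. Of the Rspo2 arrays only replicate 1 shared a slide with BSA, so the comparison of Rspo2 with BSA is in part between slides too. Differences from a fit that includes slide are given beside those of each gene. The 75th percentile of signal ran from 773.9 to 1146 intensity units over the arrays, and 51.3% to 64.2% of probes were well above background. Of 8 mammary epithelial markers, 2 to 4 passed as well above background in the 3 arrays of a group. The epithelial cadherin Cdh1 was so on 0 arrays and Epcam on 2 of 12, whereas basal keratin Krt14 was so on all 12. Of 9 mesenchymal markers, 8 were well above background on all 12 arrays.

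Promoter sequence is shown for 4 of the genes because κB sites close to the start are how NF-κB dimers are known to act on many of their feedback genes. RefSeq windows of build GRCm38.p6, from 250 bases before to 50 after a start, were at hand for 7 of the 10 genes (10 windows), and not for Nfkb1, Relb and Nfkbiz. The 250 bases before the start are printed 5′ to 3′ on the strand of the gene, for Nfkbia at chr12:55492648-55492897 on the minus strand, Tnfaip3 at chr10:19015411-19015660 on the minus strand, Nfkbie at chr17:45555450-45555699 on the plus strand and Rela at chr19:5637291-5637540 on the plus strand. Capitals mark matches to the 10-base κB consensus on either strand and, in Nfkbie, 1 match to TCAAAG, the core recognized by TCF/LEF factors, on the opposite strand.
Nfkbia: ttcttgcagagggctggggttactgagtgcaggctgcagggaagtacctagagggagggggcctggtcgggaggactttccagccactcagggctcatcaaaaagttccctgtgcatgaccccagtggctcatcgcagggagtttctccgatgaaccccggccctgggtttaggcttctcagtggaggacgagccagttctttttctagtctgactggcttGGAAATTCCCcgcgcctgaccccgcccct
Tnfaip3: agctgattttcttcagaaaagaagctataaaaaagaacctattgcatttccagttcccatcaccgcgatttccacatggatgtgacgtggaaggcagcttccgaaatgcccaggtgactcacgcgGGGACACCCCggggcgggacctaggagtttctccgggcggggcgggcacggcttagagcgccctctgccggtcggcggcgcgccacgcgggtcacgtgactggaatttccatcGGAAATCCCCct
Nfkbie: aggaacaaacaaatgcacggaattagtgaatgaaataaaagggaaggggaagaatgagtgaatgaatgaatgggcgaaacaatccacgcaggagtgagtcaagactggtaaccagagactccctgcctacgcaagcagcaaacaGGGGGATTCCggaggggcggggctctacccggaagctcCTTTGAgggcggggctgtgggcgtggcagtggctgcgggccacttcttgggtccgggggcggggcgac
Rela: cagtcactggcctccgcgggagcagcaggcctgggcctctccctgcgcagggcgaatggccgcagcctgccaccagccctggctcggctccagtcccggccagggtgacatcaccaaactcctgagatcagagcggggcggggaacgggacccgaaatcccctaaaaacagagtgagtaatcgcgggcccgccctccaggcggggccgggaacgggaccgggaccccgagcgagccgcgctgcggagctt
The κB consensus matched in windows of 5 of the 7 genes, against 4.51% of all 32851 windows of 300 bases. A gene was counted if any of its windows matched, whereas the share is per window, so count and share are not like measures. Feedback genes of NF-κB are known for such sites, so the count is a description and not a test. The match of Nfkbia lay at bases -29 to -20 from the start, that of Nfkbie at -106 to -97, and those of Tnfaip3 at -125 to -116 and -12 to -3. In Bcl3 it lay just after the start, at 3 to 12, and the first of the 3 windows of Nfkb2 held matches at -39 to -30, -38 to -29 and -11 to -2. The windows of Rela and Birc3 held none. TCAAAG matched in a window of Nfkbie only among the 7, against 16% of all windows, and no match of one motif overlapped one of the other. These matches are descriptions of the letters, not of binding.

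Rela encodes p65, the subunit with the transactivation domain of the commonest dimer. The arrays gave log2 signals of 0.88, 1.12 and 1.11 with BSA, 0.99, 1.00 and 1.02 with Rspo2, 1.22, 1.15 and 0.91 with Wnt3a, and 1.02, 1.14 and 1.16 with both proteins. Each treated group overlapped the control arrays. The difference from BSA was -0.03 with Rspo2, 0.05 with Wnt3a and 0.07 with both proteins (SE 0.10, adjusted p in limma 0.595 to 0.841), and the 95% confidence interval with both proteins ran from -0.14 to 0.29. A second Rela probe 0.5 kb away, printed 10 times on the array with a median SD between spots of 0.04, differed from BSA by 0.00, -0.10 and 0.06 in the same order. With slide as a term in the limma fit, the differences from BSA with Rspo2, Wnt3a and both proteins were -0.04, 0.13 and 0.33 (adjusted p 0.867, 0.767 and 0.484).

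Relb encodes the subunit that pairs with p52, the product of Nfkb2, in the noncanonical branch. It gave log2 signals of 0.70, 0.90 and 0.87 with BSA, 0.41, 0.50 and 0.46 with Rspo2, 0.63, 0.59 and 0.28 with Wnt3a, and 0.33, 0.24 and 0.48 with both proteins. The treated arrays all lay below the control arrays. Relb fell with every treatment, with differences of -0.37 for Rspo2, -0.32 for Wnt3a and -0.48 for both (SE 0.11, limma adjusted p 0.0408, 0.0395 and 0.00513). The call with Rspo2 was lost without any BSA array, any Rspo2 array, Wnt3a replicate 2 or replicate 2 of both proteins (adjusted p 0.0504 to 0.114). That with Wnt3a was lost without BSA replicate 2 or 3, Rspo2 replicate 1 or 2, Wnt3a replicate 2 or 3, or replicate 1 or 2 of both proteins (0.0501 to 0.119), whereas the change with both proteins held without each array in turn. Once slide was a term, the differences of Relb from BSA were -0.41, -0.28 and -0.21 (limma adjusted p 0.208, 0.486 and 0.678), and no call held.

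Nfkb2 encodes p100, the precursor of p52. Log2 signals of Nfkb2 were 1.19, 1.48 and 1.53 with BSA, 0.96, 1.23 and 1.12 with Rspo2, 1.36, 1.21 and 0.83 with Wnt3a, and 0.97, 1.02 and 1.15 with both proteins. With both proteins every array lay below every control array, and with either protein alone the groups overlapped. The differences from BSA were -0.30, -0.27 and -0.35 (SE 0.14, limma adjusted p 0.162, 0.173 and 0.0715), and none passed the test. With both proteins it did pass without BSA replicate 1 (adjusted p 0.0399) and without Wnt3a replicate 3 (0.029). The 3 differences of Nfkb2 from BSA with slide as a term were -0.44, -0.33 and -0.11 (limma adjusted p 0.241, 0.495 and 0.872).

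Nfkb1 encodes p105, the precursor of the p50 subunit. Its brightest probe, printed 10 times on the array, gave log2 signals of 1.15, 0.86 and 0.87 with BSA, 0.50, 0.13 and -0.18 with Rspo2, 0.15, 0.10 and 0.40 with Wnt3a, and 0.02, 0.32 and 0.49 with both proteins. Every treated array lay below every control array, and the 3 treated groups overlapped each other. Nfkb1 fell with every treatment, with differences of -0.81 for Rspo2, -0.75 for Wnt3a and -0.68 for both proteins (SE 0.18, limma adjusted p 0.0206, 0.00997 and 0.0114), which left 57.1%, 59.6% and 62.2% of the control signal. The spread between the 10 spots (median SD 0.05) was smaller than that between the Rspo2 arrays, where SD was 0.34. The call with Rspo2 was lost without BSA replicate 1, BSA replicate 3, Rspo2 replicate 2 or Rspo2 replicate 3 (adjusted p 0.0703, 0.0524, 0.0513 and 0.0761). Once slide was a term, the differences of Nfkb1 from BSA were -0.46, -0.31 and -0.43 (limma adjusted p 0.314, 0.646 and 0.594), and no call held.

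The other 3 probes of Nfkb1 lie 26.5 to 33.5 kb from the brightest one. All of them fell with both proteins: the first fell by 1.08, the second fell by 0.63 and the last fell by 0.96 (SE 0.24, 0.15 and 0.20; limma adjusted p 0.00492, 0.00738 and 0.00396). The probes disagreed on the single proteins: with Rspo2 none of the 3 passed the test (-0.58, -0.11 and -0.54), and with Wnt3a the first fell by 1.12, past the 2-fold line, and the second fell by 0.44, whereas the last did not pass (-0.51, adjusted p 0.0769). One of them, A_52_P32733, also fell by 0.52 from Rspo2 to both proteins (SE 0.15, limma adjusted p 0.0379), where the brightest probe differed by 0.12 (adjusted p 0.681). The mean of the 4 probes fell by 0.33 in that comparison (adjusted p 0.0279). The probes of Nfkb1 thus disagree on whether both proteins differed from Rspo2.

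**Figure D1:**
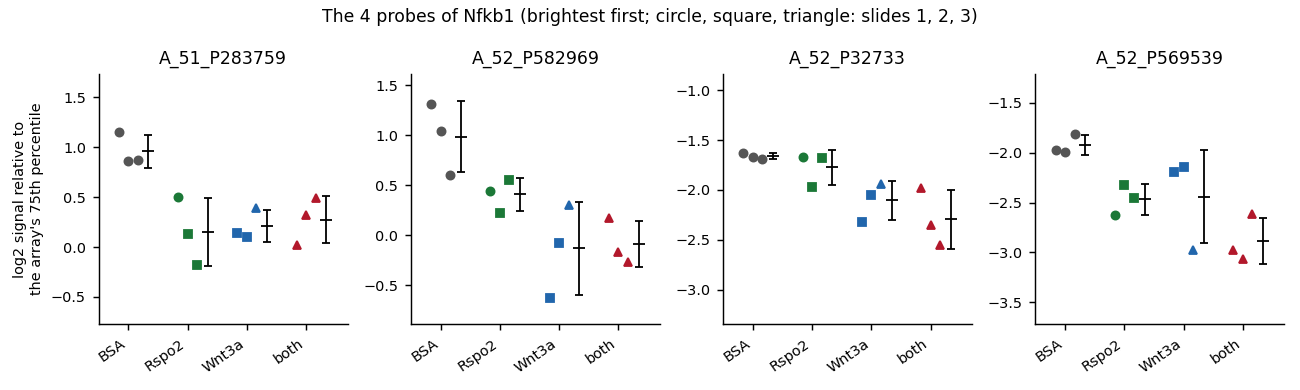
Log2 signal over the 75th percentile of its array (vertical axis, each panel spanning 2.5 units) for the 4 probes of Nfkb1 in the 4 groups; each symbol is 1 array, its shape gives the slide, and the bar is the mean and SD of 3 arrays. In all 4 panels the arrays of both proteins lie below the BSA arrays, while the Rspo2 arrays of A_52_P32733 overlap them.

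Nfkbia encodes IκBα, the inhibitor that is remade fastest after NF-κB is activated. Log2 signals of Nfkbia were 4.35, 4.45 and 4.18 with BSA, 4.06, 4.12 and 4.31 with Rspo2, 3.75, 3.94 and 4.0 with Wnt3a, and 3.55, 3.39 and 3.17 with both proteins. The Rspo2 arrays overlapped the control arrays, the Wnt3a arrays lay below them, and the arrays of both proteins lay below all others. With Rspo2 the difference was -0.16 (SE 0.12, limma adjusted p 0.367), with Wnt3a Nfkbia fell by 0.43 (adjusted p 0.0199), and with both proteins it fell by 0.95 (adjusted p 0.000188). From Wnt3a to both proteins it fell by 0.52 (adjusted p 0.0333), and from Rspo2 to both it fell by 0.79 (adjusted p 0.00111). The call with Wnt3a was lost without BSA replicate 1 or 2 or Wnt3a replicate 1 (adjusted p 0.055, 0.0722 and 0.0638). The step from Wnt3a to both was lost without Rspo2 replicate 2, Wnt3a replicate 2 or 3, or replicate 2 or 3 of both proteins (adjusted p 0.0519 to 0.124). The 3 differences of Nfkbia from BSA with slide as a term were -0.26, -0.64 and -1.26 (limma adjusted p 0.437, 0.263 and 0.0565), and no call held. In that fit both proteins differed from Wnt3a by -0.63, which did not pass (adjusted p 0.17), and Nfkbia fell by 1.00 from Rspo2 to both (adjusted p 0.0498).

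Nfkbie encodes IκBε, a slower inhibitor of the same dimers. Signals on the log2 scale were -0.82, -0.71 and -1.06 with BSA, -1.35, -1.51 and -1.38 with Rspo2, -1.55, -1.52 and -1.30 with Wnt3a, and -1.26, -1.46 and -1.37 with both proteins. The treated arrays all lay below the control arrays and overlapped each other. Nfkbie fell with every treatment, with differences of -0.54, -0.59 and -0.50 (SE 0.11, limma adjusted p 0.0163, 0.00311 and 0.00451), and the group of both proteins differed from Wnt3a by 0.09 and from Rspo2 by 0.05 (adjusted p 0.703 and 0.816). The call with Rspo2 was lost without BSA replicate 1 or Rspo2 replicate 3 (adjusted p 0.0573 and 0.0527). Once slide was a term, the differences of Nfkbie from BSA were -0.48, -0.57 and -0.63 (limma adjusted p 0.212, 0.241 and 0.25), and no call held. With the normexp background correction these differences were -0.28, -0.64 and -0.49 (limma adjusted p 0.805, 0.211 and 0.258), and no call held either.

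Nfkbiz encodes IκBζ, a nuclear cofactor that p50 dimers need to switch on a set of late inflammatory genes. Log2 signals of Nfkbiz were 1.25, 1.22 and 1.34 with BSA, 0.67, 0.75 and 0.56 with Rspo2, 0.36, 0.62 and 0.27 with Wnt3a, and -0.37, -0.38 and -0.34 with both proteins. Both single treatments lay below the control arrays and overlapped each other, and the arrays of both proteins, from -0.38 to -0.34, lay below all the rest. Nfkbiz fell with every treatment, with differences of -0.61 for Rspo2, -0.85 for Wnt3a and -1.63 for both proteins (SE 0.09, limma adjusted p 0.00783, 0.000302 and 8.93e-07), a 3.1-fold decrease with both. From Wnt3a to both proteins it fell by 0.78 (adjusted p 0.000907), and from Rspo2 to both it fell by 1.02 (adjusted p 3.95e-05), a change of 2.03-fold. Its interaction, the change with both proteins less the sum of the changes with each, was -0.17 (SE 0.13, adjusted p 0.415), with a 95% confidence interval from -0.47 to 0.12. The 3 differences of Nfkbiz from BSA with slide as a term were -0.59, -0.76 and -1.39 (limma adjusted p 0.105, 0.0913 and 0.013), so that the call with both proteins was the one that held. In that fit both proteins differed from Wnt3a by -0.64, which did not pass (adjusted p 0.0535), and Nfkbiz fell by 0.80 from Rspo2 to both (adjusted p 0.0384).

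Bcl3 encodes another nuclear member of the IκB family, which binds p50 and p52 dimers. Its log2 signals were 1.37, 1.13 and 0.94 with BSA, 0.53, 0.53 and 0.42 with Rspo2, 0.33, 0.53 and 0.40 with Wnt3a, and 0.42, 0.39 and 0.40 with both proteins. The 9 treated arrays spanned 0.33 to 0.53, all below the control arrays, which were the more spread. Bcl3 fell with every treatment, with differences of -0.65, -0.72 and -0.74 (SE 0.10, limma adjusted p 0.00868, 0.00115 and 0.00038). With both proteins it differed from Wnt3a by -0.02 and from Rspo2 by -0.09 (adjusted p 0.954 and 0.602), with 95% confidence intervals from -0.25 to 0.21 and from -0.32 to 0.14. Once slide was a term, the differences of Bcl3 from BSA were -0.61, -0.66 and -0.66 (limma adjusted p 0.161, 0.216 and 0.27), and no call held.

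Tnfaip3 encodes A20, a ubiquitin-editing enzyme that ends signaling from TNF and Toll-like receptors. Its log2 signals were -1.29, -1.35 and -1.28 with BSA, -1.83, -1.60 and -1.82 with Rspo2, -1.41, -1.43 and -1.78 with Wnt3a, and -1.89, -1.69 and -1.57 with both proteins. No treated array reached the control arrays. Tnfaip3 fell with Rspo2 and with both proteins, with differences of -0.45 and -0.41 (SE 0.12, limma adjusted p 0.0328 and 0.0192), and the difference with Wnt3a was -0.24 (adjusted p 0.153). The call with both proteins was lost without BSA replicate 1, BSA replicate 3 or replicate 1 of both proteins (adjusted p 0.0512, 0.056 and 0.0778), and that with Rspo2 without any BSA array, Rspo2 replicate 1 or 3, or replicate 2 of both proteins (0.0536 to 0.112). The 3 differences of Tnfaip3 from BSA with slide as a term were -0.52, -0.23 and -0.17 (limma adjusted p 0.173, 0.608 and 0.784), and no call held. With the normexp background correction these differences were -0.08, -0.25 and -0.44 (limma adjusted p 0.898, 0.748 and 0.405), and no call held either.

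Birc3 encodes cIAP2, a ubiquitin ligase of the TNF receptor complex that is itself induced by NF-κB. Its log2 signals were -0.42, -0.53 and -0.60 with BSA, -0.92, -1.03 and -1.12 with Rspo2, -1.06, -1.09 and -0.98 with Wnt3a, and -1.09, -1.71 and -0.86 with both proteins. All treated arrays lay below the control arrays, and replicate 2 of both proteins lay farthest from its group. Birc3 fell with Wnt3a and with both proteins, with differences of -0.53 and -0.71 (SE 0.17, limma adjusted p 0.0394 and 0.00864), and the difference with Rspo2 was -0.51 (adjusted p 0.0659). The call with Wnt3a was lost without any BSA array, any Wnt3a array, or Rspo2 replicate 1 or 2 (adjusted p 0.0502 to 0.11), and the difference with Rspo2 passed without replicate 2 or 3 of both proteins (0.0235 and 0.0406). Once slide was a term, the differences of Birc3 from BSA were -0.40, -0.40 and -0.64 (limma adjusted p 0.443, 0.648 and 0.54), and no call held. A dimmer Birc3 probe 7.3 kb away had an SE of 0.56, and none of its differences passed the test. As the mean of both probes, Birc3 differed from BSA by -0.39 with Wnt3a and -0.50 with both proteins (limma adjusted p 0.397 and 0.258). Neither call held there. At the brightest probe, the difference with both proteins did not pass the unequal-variance t-test of the study's methods either (unadjusted p 0.104).

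**Figure D2:**
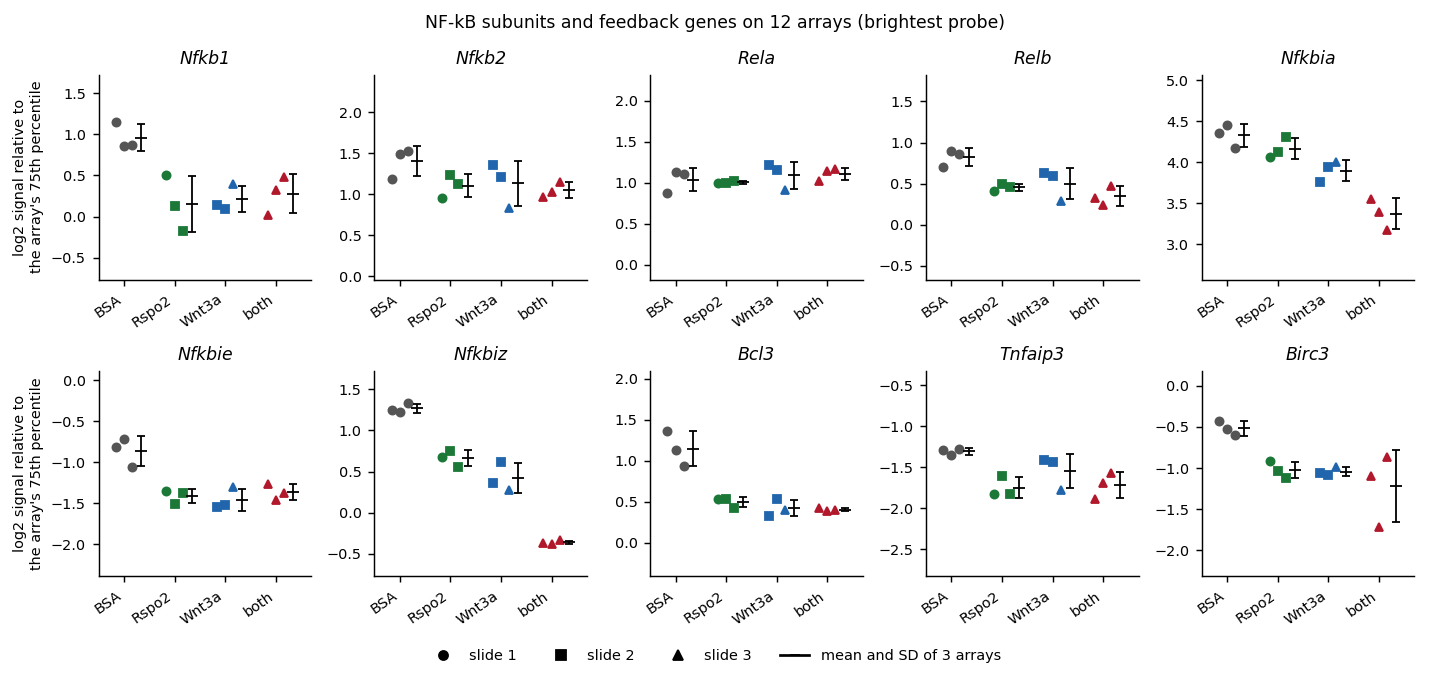
Log2 signal over the 75th percentile of its array (vertical axis, each panel spanning 2.5 units) for the brightest probe of each of the 10 genes in the 4 groups; each symbol is 1 of 12 arrays, its shape gives the slide, and the bar is the mean and SD of 3 arrays. Nfkbiz descends from 1.25, 1.22 and 1.34 with BSA to -0.37, -0.38 and -0.34 with both proteins, and the treated groups of Rela overlap the BSA arrays.

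Counted together, 6 of the 10 genes fell with Rspo2, against 5.92% of all tested probes, and none rose, against 10.9%. Of all probes past the test 35.3% were lower with Rspo2, 42% with Wnt3a and 44.1% with both proteins. These shares became 66.9%, 64.6% and 61.2% with the 75th percentile of only the probes well above background on every array. The arrays did not overlap, with Rspo2 below BSA, for 7 genes, against 17.2% of all tested probes. The median difference over the 10 genes was -0.48, beside 0.01 over all tested probes. No gene passed with a 2-fold change, against 0.62% of tested probes that did so downward and 0.101% upward. The count of 6 became 2 without BSA replicate 1 or without Rspo2 replicate 3, and 3 without BSA replicate 3.

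With Wnt3a 7 of the 10 genes fell, against 13.2% of all tested probes, and none rose, against 18.3%. The arrays did not overlap for 8 genes, against 19.6% of all tested probes. The median difference was -0.48, beside -3e-04 over all tested probes. No gene passed with a 2-fold change at its brightest probe, against 2.11% of tested probes that did so downward and 0.404% upward. The count of 7 became 4 without BSA replicate 2.

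With both proteins 8 genes fell, as given above, and the arrays did not overlap for 9, against 23.1% of all tested probes. Nfkbiz alone fell at least 2-fold at its brightest probe, against 3.79% of all tested probes. The median difference was -0.59, beside 0.04 over all tested probes. The 3 comparisons share the BSA arrays, so their likeness is not a separate result. The count of 8 was 7 to 9 when single arrays were left out. Nfkbia reached the 2-fold line as well, which made 2 genes, without BSA replicate 3 or without replicate 1 of both proteins.

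**Figure D3:**
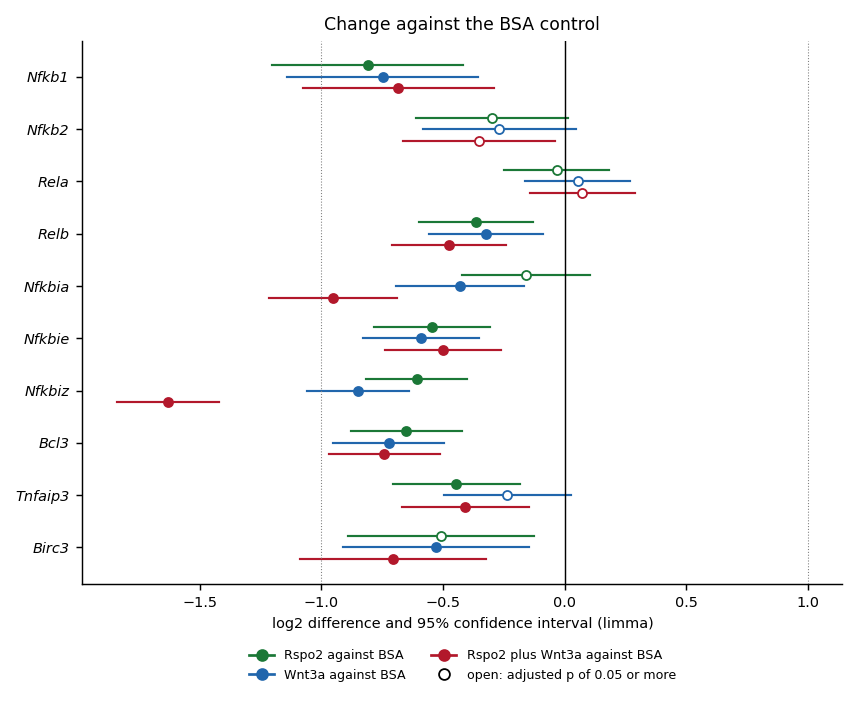
Log2 difference from BSA (horizontal axis) with its 95% confidence interval for the 10 genes (rows) under Rspo2, Wnt3a and both proteins; filled points have an adjusted p under 0.05 in limma, and dotted lines mark a 2-fold change. Of the 30 points only that of Nfkbiz with both proteins, at -1.63, lies beyond the dotted line, and the points of Rela lie between -0.03 and 0.07.

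Within slides, where no slide difference enters, Rspo2 could be set against BSA on slide 1 only. There Rspo2 replicate 1 minus the mean of the BSA arrays was -0.61 for Bcl3, -0.59 for Nfkbiz, -0.52 for Tnfaip3 and -0.48 for Nfkbie. It was -0.46 for Nfkb1, -0.44 for Nfkb2, -0.41 for Relb, -0.40 for Birc3, -0.26 for Nfkbia and -0.04 for Rela. Of these genes Nfkb2, Birc3, Nfkbia and Rela had not passed the test with Rspo2. On slide 2, Wnt3a differed from Rspo2 by -0.37 for Nfkbia and -0.16 for Nfkbiz, and by 0.29 for Tnfaip3. On slide 3, both proteins differed from Wnt3a replicate 3 by -0.64 for Nfkbiz and -0.63 for Nfkbia. The differences of the other genes there ran from -0.24 for Birc3 to 0.22 for Nfkb2, with 0.00 for Bcl3 and -0.06 for Nfkbie. Differences of Wnt3a and of both proteins from BSA with slide as a term rest on such steps added over the slides. In that limma fit Nfkbiz alone passed the test against BSA, and the counts of 6, 7 and 8 became 0, 0 and 1.

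Whether Rspo2 added to Wnt3a was tested directly by setting both proteins against Wnt3a. Nfkbiz and Nfkbia fell, 2 of the 10 genes against 2.49% of all tested probes, and none rose, against 1.78%. With slide as a term neither passed, so the count was 0. The median difference of the 10 genes was -0.12, beside 0.00 over all tested probes. The 8 others differed by -0.18 to 0.09, and none passed the test. The count became 1 without Rspo2 replicate 2, Wnt3a replicate 2 or 3, or replicate 2 or 3 of both proteins.

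Whether Wnt3a added to Rspo2 was tested by setting both proteins against Rspo2. Nfkbiz and Nfkbia again fell, 2 of 10 against 9.81% of all tested probes, and none rose, against 6.69%. Nfkbiz fell at least 2-fold, against 1.7% of all tested probes, but was under that line without Rspo2 replicate 2, when it fell by 0.98 (adjusted p 0.00038). The median difference of the 10 genes was -0.07, beside 0.03 over all tested probes.

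The interaction was positive for Nfkbie, at 0.64 (SE 0.15, limma adjusted p 0.0325), and for Bcl3, at 0.63 (SE 0.15, adjusted p 0.0286), that is, the decrease with both proteins was smaller than the sum of the separate decreases. These were 2 of 10 genes, against 3.58% of all tested probes with a positive interaction, and no gene had a negative one that passed, against 5.31%. Nfkb1 had the largest estimate, 0.87 at its brightest probe, with a larger SE of 0.25 (adjusted p 0.0554). Its other probes gave 0.62, -0.08 and 0.09 (limma adjusted p 0.241, 0.835 and 0.856), so the probes of Nfkb1 disagree here as well. The signs of Nfkbia (-0.36, adjusted p 0.18) and Nfkbiz were negative but did not pass. The count was 0 without BSA replicate 2, Rspo2 replicate 2 or 3, Wnt3a replicate 1 or replicate 2 or 3 of both proteins, and 1 without BSA replicate 1 or Wnt3a replicate 2. It was also 0 with slide as a term.

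**Figure D4:**
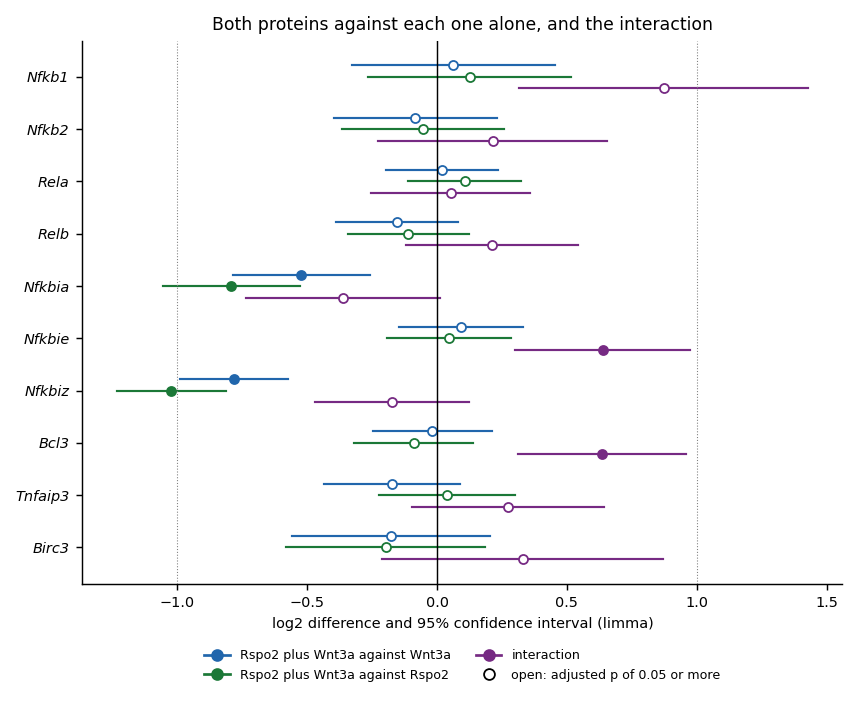
Log2 difference (horizontal axis) with its 95% confidence interval for the 10 genes (rows): both proteins minus Wnt3a, both minus Rspo2, and the interaction (the difference with both proteins minus the differences with each added together); filled points have an adjusted p under 0.05 in limma. The differences of Nfkbia and Nfkbiz lie at -0.52 and -0.78 against Wnt3a, while those of the other genes lie between -0.18 and 0.09, and the interactions of Nfkbie and Bcl3 lie at 0.64 and 0.63.

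Across the 12 arrays, the genes most like each of these were named by Pearson correlation over 15365 other genes, as a description in which the points share arrays, groups and slides. Nfkbiz was closest to Traf1 (r = 0.987), Wdr19 (0.987) and Osmr (0.986), of which Traf1 encodes an adaptor of TNF receptors and Osmr the oncostatin M receptor. Relb was closest to an unnamed transcript (0.976), Tnip1 (0.972), which encodes a partner of A20, and Clip2 (0.962). Nfkbia was closest to Rsrp1 (0.987), Bcl3 to Aasdh (0.991), Nfkb1 to Rxra (0.977), Tnfaip3 to Nedd4 (0.976), Nfkbie to Syt13 (0.965), Nfkb2 to Kdm4b (0.963), Rela to Pygo2 (0.924) and Birc3 to Slc25a37 (0.920). Among the 10 genes themselves r was 0.916 between Relb and Nfkb2, 0.900 between Nfkbia and Nfkbiz and 0.899 between Nfkbie and Bcl3, and Rela was the member with negative values, down to -0.458 with Nfkbia.

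The rest of the pathway was mixed in direction. Of 15 IκB kinases and upstream kinases, 3 fell and 2 rose with both proteins (median -0.07). Of 18 adaptors and ubiquitin ligases 5 fell and none rose (median -0.07), and Traf1 fell by 1.10 (SE 0.08, limma adjusted p 5.75e-06). Of 13 other inhibitors 3 fell and 4 rose (median -0.02). Among these Zc3h12a, for an RNase that degrades inflammatory mRNAs, fell by 1.47 (SE 0.19, adjusted p 0.000233), with -0.86 (adjusted p 0.118) once slide was a term. Tnip3, for an A20-binding protein that the array lists under an older name, rose by 1.61 (SE 0.09, adjusted p 6.13e-07), a call lost with the normexp background correction (0.97, adjusted p 0.244). Neither of the 2 other inhibitor-family genes tested, Nfkbib and Nfkbil1, passed (0.09 and 0.23, adjusted p 0.534 and 0.486). The background for these counts is the 17.3% of tested probes that fell and 21.9% that rose.

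Of 11 receptors that feed the pathway 6 fell and 2 rose with both proteins (median -0.39). Tlr2, for a receptor of bacterial lipoproteins, fell by 1.35 (SE 0.08, limma adjusted p 1.12e-06), and Tnfrsf1b, for a TNF receptor, fell by 1.05 (SE 0.12, adjusted p 0.000119), the latter with -0.75 (adjusted p 0.252) once slide was a term. Of 12 ligand genes on the array, Il33 and Il18 were tested. Il33, for an alarmin cytokine of the interleukin 1 family that the array lists under an older name, rose with every treatment, by 2.35 with Rspo2, 3.46 with Wnt3a and 5.07 with both proteins (SE 0.09, limma adjusted p 4.58e-07, 7.5e-09 and 1.37e-10), and its difference with both was 5.4 once slide was a term (adjusted p 1.2e-05). Its call with Rspo2 was lost with the normexp background correction (1.58, adjusted p 0.32). The study had reported the rise of Il33 on these same arrays, so it is not a separate result. Il18 did not pass (-0.18, adjusted p 0.251), and Tnf, Il1a and Il1b were well above background on 0 of the 12 arrays. Of 26 tested target genes outside the pathway 14 fell, against 17.3% of all tested probes, and 2 rose, against 21.9% (median -0.34). At least 2-fold falls were seen for 9, against 3.79% of all tested probes. The study had reported Ccl5, Ccl7, Saa3, C3 and Lcn2 of this list as lower on these same arrays, so these counts are not a separate result. Ccl7, for a monocyte chemokine, fell by 2.97 (SE 0.14, adjusted p 2.84e-07), and C3, for the central complement component, fell by 3.98 (SE 0.16, adjusted p 7.61e-08). Lcn2 and Saa3, also among the 4 largest decreases of the targets, were well above background on 10 and 4 of the 12 arrays only, so their fitted differences are not given as folds. Genes like these can enter the test, and the counts above, through the group where their signal is high.

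Marker genes of other cells moved with the treatments too. The summed signal of 10 leukocyte markers, relative to the 75th percentile, ran between 6.09 and 7.05 in the BSA arrays, between 7.06 and 7.87 in the Rspo2 arrays, between 5.34 and 5.97 in the Wnt3a arrays and between 3.63 and 4.17 in the arrays of both proteins. Of these markers 3 to 5 passed as well above background in the 3 arrays of a group, while Ptprc, the pan-leukocyte marker, was so on 1 of 12 arrays. Most of the sum came from Cd14, which with both proteins fell by 0.79 (limma adjusted p 1e-04). Of 5 tested leukocyte markers 2 fell and none rose with Wnt3a (median -0.33). With both proteins 3 of these 5 fell and none rose (median -0.62). The summed signal of 8 epithelial markers ran from 10.2 to 10.7 in the BSA arrays, 9.77 to 12.3 in those of Rspo2, 15.3 to 16.9 in those of Wnt3a and 22.5 to 25.9 in those of both proteins. For 9 mesenchymal markers the ranges in the same order were 408 to 413, 432 to 438, 452 to 463 and 479 to 502. Such sums follow the brightest markers, and single epithelial and mesenchymal markers went both ways. Of 4 tested epithelial markers 2 fell and 1 rose with Wnt3a (median -0.50). With both proteins 1 of them fell and 1 rose (median 0.02). Of 8 tested mesenchymal markers 2 fell and 1 rose with both proteins (median -0.13). Over all tested probes the median was -3e-04 with Wnt3a and 0.04 with both proteins. The part of these markers in the results was not tested.

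**Figure D5:**
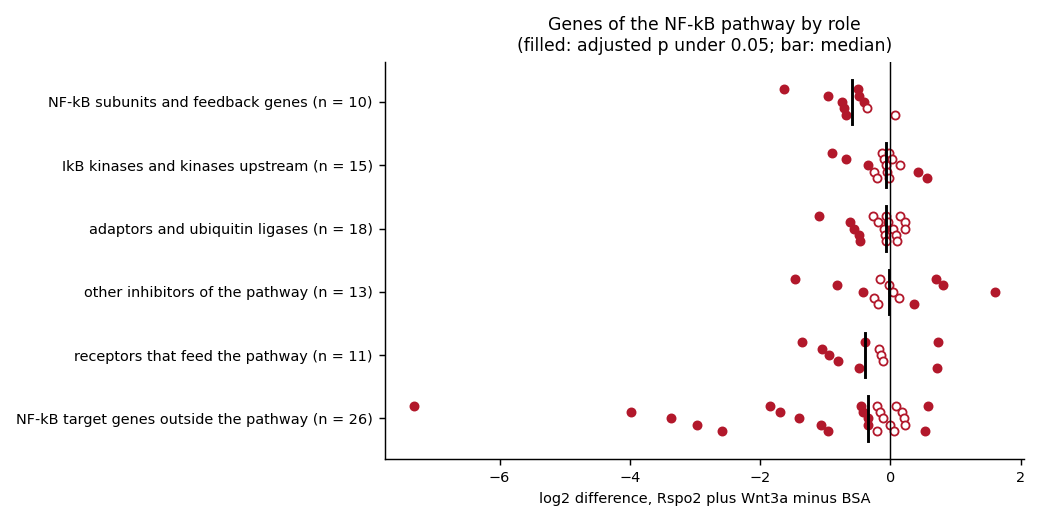
Log2 difference between both proteins and BSA (horizontal axis) for the tested genes of the NF-κB pathway by role (rows, with the number tested). Roles with at least 10 tested genes are drawn. This leaves out the ligands, with Il33, and the other inhibitor-family genes, with 2 tested genes each. Filled points have an adjusted p under 0.05 in limma and the bar is the median of the row. The medians are -0.59 for the subunits and feedback genes, -0.07 for kinases and for adaptors, -0.02 for other inhibitors, -0.39 for receptors and -0.34 for target genes, and the point farthest left is Lcn2, which was well above background on 10 of the 12 arrays.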

How the data were processed

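C57MG cells of 4 treatment groups, with 3 biological replicates each, were profiled on 12 single-color Agilent arrays on 3 slides. Per the file headers, the authors extracted the deposited spot intensities with Agilent Feature Extraction 9.5.3.1, which subtracted background. The other deposited table holds ratio values, each signal divided by the 75th percentile of its array by the authors, with a floor, and served as an alternative after conversion to log2. Of 520548 spot values, 1327 that the scanner software had marked as outliers or nonuniform were dropped. The remaining spots of a probe were averaged, and the log2 of the 75th percentile of that array was subtracted from the log2 of the mean. A probe was tested when well above background on all 3 arrays of a group (on at least 0.5 of its spots where printed repeatedly).

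A single limma model of the 12 arrays (limma 3.58.1 in R 4.3.3 with version 1.17.8 of data.table, prior degrees of freedom 2.74) gave 6 comparisons, whose p-values were adjusted over 22751 probes by Benjamini-Hochberg. A further call required a change of at least 2-fold. The fits were tested on simulated data. The 10 genes were named by their brightest probe, with other probes beside it; of the pathway lists up to 4 genes changed at least 2-fold with both proteins could be named, and the 3 genes most correlated with each member. Of 156 list entries 149 matched a name in the files, and 4 more matched through the RefSeq accession of the probe. Members and lists were chosen with earlier results of these data known. In all, 30 alternatives were run, of background correction, scaling, filter, test, block and probe, including each of the 12 arrays left out in turn. Figures were drawn with matplotlib 3.10.9 in python 3.11.15. Precision is limited by having 3 arrays per group.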

Additional observations from a re-analysis of the deposited data

Results flagged for a closer look

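The effect of Rspo2 on Nfkbie and on Bcl3 differed between cells without and with Wnt3a, by the test of the interaction. With Rspo2 alone the log2 difference from BSA was -0.54 for Nfkbie and -0.65 for Bcl3, whereas on top of Wnt3a the differences were 0.09 and -0.02. The interactions were 0.64 for Nfkbie (limma adjusted p 0.0325) and 0.63 for Bcl3 (adjusted p 0.0286). Neither passed once the fit held a term for slide, where they were 0.42 and 0.62 (adjusted p 0.333 and 0.25). When each of the 12 arrays was left out in turn, the call of Nfkbie was lost 8 times and that of Bcl3 6 times. Beyond that, groups of 3 arrays were not searched for single outlying arrays.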

How the results depend on the processing

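Over 28 alternatives that give single values, 1467 of 1660 differences of the 10 genes kept their direction where called and their side of the threshold, 171 lost it, 21 gained it and 1 reversed: Nfkb1 between both proteins and Rspo2, -0.33 as the mean of its probes. The fall of Nfkbiz with both proteins passed under all 28 (-1.74 to -1.39). Counts of genes past the test are given for Rspo2, Wnt3a and both proteins against BSA, both against Wnt3a, both against Rspo2, and the interaction; the main counts were 6, 7, 8, 2, 2 and 2. They were 0, 0, 2, 0, 1 and 0 with the normexp background correction; 0, 0, 1, 0, 2 and 0 with slide as a term; and 0, 1, 3, 0 and 0 with the methods' t-test after adjustment, which gives no interaction. With no filter on dim probes, where more probes were tested, 4 of 6 counts moved by over 1.5 times, to 0 (Rspo2), 4 (Wnt3a), 1 (both against Wnt3a) and 0 (interaction). The filter on positive and significant signal gave 1 against Wnt3a and 1 for the interaction, the fit of only the groups compared gave 1 against Wnt3a, and slide as a random block gave 0 for the interaction. With the replicate block the counts moved to 3 with Rspo2, 1 against Wnt3a and 0 for the interaction, and no other moved by over 1.5 times. The replicate numbers did not pair the arrays: over 18 pairs with the same number, deviations from the group means correlated between -0.412 and 0.272, with 4 over 0.1, and 3 of 12 arrays correlated best with their own number.

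With the 2-fold requirement the main counts were 0, 0, 1, 0, 1 and 0. With both proteins against BSA the count was 2 under quantile normalization, 2 when the 75th percentile was taken over the probes well above background on every array, and 2 with any probe of a gene counted, which also gave 1 with Wnt3a. Against Rspo2 it was 0 with normexp, 50 intensity units added, the adjusted t-test, slide as a term or slide as a random block. Without the fold requirement it was 6, 7, 8, 2, 2 and 2. When each array was left out, counts past the test ran from 2 to 7 with Rspo2, 4 to 7 with Wnt3a, 7 to 9 with both, 1 to 2 against Wnt3a, 2 to 2 against Rspo2 and 0 to 3 for the interaction. With the 2-fold requirement they ran from 0 to 0, 0 to 0, 1 to 2, 0 to 0, 0 to 1 and 0 to 1. The 75th percentile taken over those probes moved the median of all probes by -0.10 with Rspo2, -0.12 with Wnt3a and -0.11 with both proteins. The share of lower ones among probes past the test moved from 35.3% to 66.9%, from 42% to 64.6% and from 44.1% to 61.2% in that order, and for the interaction from 59.7% to 37.7%, with a shift of the median of 0.11. The cause of these differences was not tested.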
